A study of Homo sapiens with 6 samples.

Results

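The genes described here were 48 genes of mitotic entry, the spindle and the kinetochore, taken by symbol from a set list of cyclins, kinases, checkpoint proteins, centromere proteins, kinesins and spindle proteins. These genes and the further lists below were chosen with earlier results of these data known, so comparisons with all genes are descriptive. A gene counted as measured where it stood at 1 or more in either library of an experiment. All 48 met this in all 3 experiments, out of 17602 genes listed in the SR2211 experiment, 16293 in the XY011 experiment and 22642 in the ENZ experiment. The lowest member value in any library was 1.93 FPKM, for KIF18A with ENZ, so no member lay outside the minimum.

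The libraries came from C4-2B, a bone-metastatic derivative of the LNCaP prostate cancer line, a single established line grown on plastic. Cells were treated for 48 h with SR2211 at 5 µM, with XY011 at 5 µM or with enzalutamide (ENZ) at 20 µM, and each treated library had a vehicle library of its own experiment. Every group, vehicles included, was kept in RPMI with serum that was mostly cds-FBS, which is charcoal-stripped and low in steroid hormones, plus a small share of regular FBS. SR2211 is an inverse agonist of the nuclear receptor ROR-γ, XY011 is known here by its code name as a compound of the same study, and ENZ is an antagonist of the androgen receptor. The study asked what ROR-γ does in castration-resistant prostate cancer, and set ENZ beside the ROR-γ compounds. Groups were taken from the titles and source names of the samples. The text on RNA extraction names another compound code where XY011 stands elsewhere, and names SR2211 for the ENZ experiment, so the identity of the XY011 and ENZ treatments rests on those titles and source names. There was 1 library per group, so no difference within an experiment has a replicate check, and the labels do not say how many cultures went into a library.

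Entry into mitosis is driven by CDK1 bound to cyclins A and B, with PLK1 and the Aurora kinases acting beside it. Kinetochore proteins built on CENPA chromatin attach chromosomes to spindle microtubules, kinesins move and shape the spindle, and a checkpoint holds back the anaphase-promoting complex until attachment is complete. Many of these genes are transcribed late in the cell cycle through the MuvB complex, first with B-MYB (MYBL2) and then with FOXM1, at promoters that often hold a CHR element and CCAAT boxes, while DNA replication genes are switched on earlier by E2F factors.

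Promoters of 5 members are printed to show these letters beside the values that follow, each as 250 bases before to 50 bases after the gene's start in RefSeq on GRCh38.p14, on the gene's own strand. ESPL1 and SPC25 were lower with both SR2211 and XY011, KIF20A had the lowest change with SR2211, and BUB1 and TOP2A differed between the compounds. The windows are chr12:53268049-53268348 on the plus strand for ESPL1, chr2:168890381-168890680 on the minus strand for SPC25, chr5:138178862-138179161 on the plus strand for KIF20A, chr2:110678014-110678313 on the minus strand for BUB1 and chr17:40417847-40418146 on the minus strand for TOP2A. Capitals mark a CHR element (TTTGAA or TTCGAA) or a CCAAT box on either strand.
ESPL1: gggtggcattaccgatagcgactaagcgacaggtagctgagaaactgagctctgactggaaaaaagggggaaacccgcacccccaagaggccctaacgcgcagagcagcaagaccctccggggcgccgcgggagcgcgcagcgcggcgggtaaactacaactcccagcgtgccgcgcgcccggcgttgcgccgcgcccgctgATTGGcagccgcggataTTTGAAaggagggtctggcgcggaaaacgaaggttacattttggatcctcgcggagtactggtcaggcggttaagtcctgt
SPC25: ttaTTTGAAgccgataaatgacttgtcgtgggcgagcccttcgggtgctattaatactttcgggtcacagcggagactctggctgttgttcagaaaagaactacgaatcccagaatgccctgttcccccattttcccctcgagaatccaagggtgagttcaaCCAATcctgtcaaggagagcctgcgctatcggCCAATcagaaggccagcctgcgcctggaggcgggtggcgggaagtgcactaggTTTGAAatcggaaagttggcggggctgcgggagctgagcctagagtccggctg
KIF20A: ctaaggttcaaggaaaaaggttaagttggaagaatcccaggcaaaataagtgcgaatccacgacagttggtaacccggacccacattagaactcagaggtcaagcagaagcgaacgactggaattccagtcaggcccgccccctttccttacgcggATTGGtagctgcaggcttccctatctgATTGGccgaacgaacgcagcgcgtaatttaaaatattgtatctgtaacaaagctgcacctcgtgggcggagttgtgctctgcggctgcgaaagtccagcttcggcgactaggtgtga
BUB1: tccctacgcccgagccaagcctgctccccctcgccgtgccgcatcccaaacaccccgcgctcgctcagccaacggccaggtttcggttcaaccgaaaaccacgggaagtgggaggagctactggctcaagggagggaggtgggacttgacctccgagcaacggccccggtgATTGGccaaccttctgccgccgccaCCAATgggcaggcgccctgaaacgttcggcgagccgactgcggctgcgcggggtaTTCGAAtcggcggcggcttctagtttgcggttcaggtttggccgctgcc
TOP2A: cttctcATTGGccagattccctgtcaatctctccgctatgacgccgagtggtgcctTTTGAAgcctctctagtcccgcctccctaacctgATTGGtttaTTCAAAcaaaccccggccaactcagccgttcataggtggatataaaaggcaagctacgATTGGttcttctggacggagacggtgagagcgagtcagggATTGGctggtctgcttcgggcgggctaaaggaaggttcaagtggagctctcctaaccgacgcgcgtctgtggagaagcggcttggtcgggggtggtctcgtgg

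The window of ESPL1 held 1 CHR and 1 CCAAT, that of SPC25 held 2 of each, and that of BUB1 held 1 CHR and 2 CCAAT. TOP2A had 2 CHR and 4 CCAAT, and KIF20A had 2 CCAAT and no CHR letters in this window. Of the 48 members, 40 had a promoter in the RefSeq table, and a CHR was found in 29 of these 40 (72.5%), in 2 of 29 promoters of DNA replication genes (6.9%) and in 2135 of 15843 promoters of protein-coding genes (13.5%). CCAAT was found in 29 of 40 members (72.5%), in 58.6% of the replication genes and in 36.4% of protein-coding genes. The E2F letters TTTGGCGC or TTTCCCGC were found in 3 of 40 members (7.5%), in 15 of 29 replication genes (51.7%) and in 3.06% of protein-coding genes. All motifs were searched on both strands, and overlapping matches were each counted. These are matches of letters, not measured binding.

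The deposited tables hold normalised values only: RPKM (reads scaled by gene length and by the mapped reads of the library) for the SR2211 experiment and FPKM (the same for fragments) for the others. Steps in the RPKM values gave 8163382 mapped reads for SR2211 and 8200243 for its vehicle, and the depth of the FPKM libraries is unknown. All 9 prostate luminal markers stood at 1 or more in every library, with a summed level of 1164 RPKM with SR2211 and 3023 with its vehicle, 1348 FPKM with XY011 and 3074 with its vehicle, and 3290 FPKM with ENZ and 5338 with its vehicle. No endothelial marker reached 1 in any library, and the leukocyte markers summed to between 4.72 and 13.3 over the 6 libraries. The fibroblast markers summed to 5.95 RPKM with SR2211 and 4.44 with its vehicle, to 3.68 FPKM with XY011 and 2.63 with its vehicle, and to 48.05 FPKM with ENZ and 31.1 with its vehicle. Of the neuroendocrine markers, 0 to 2 of 4 stood at 1 or more. What part these marker levels have in the results was not tested.

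Changes are log2 ratios of treated over vehicle after adding a pseudocount of 1, which understates the change of low genes, and a gene was called lower or higher at a log2 change of 1 or more. With SR2211, 18 of the 48 mitotic genes were lower (37.5%) and 0 were higher, beside 5.76% of 12142 genes lower and 5.1% higher in the same experiment. All 48 had a change below 0, with a median of -0.83 and a range of -1.56 to -0.14, while 54.4% of all tested genes lay below 0 with a median of -0.07. With XY011, 6 of 48 were lower (12.5%) and 0 were higher, beside 13.2% of 12609 genes lower and 7.59% higher, so the share of members lower was near that of all genes. Over all genes, 1661 were lower and 957 higher with XY011, and 1214 lower and 1271 higher after centring on the median gene. The members' median was -0.35 over a range of -1.71 to 0.94, with 36 below 0 and 12 above 0, and the median of all genes in that experiment was -0.14, against which the members' median was -0.20. With ENZ, 0 of 48 were lower and 0 higher, beside 4.65% of 19250 genes lower and 3.68% higher, and the median was -0.30 over a range of -0.89 to 0.26, with all genes at -0.02. Over all genes, 896 were lower and 708 higher with ENZ, and 705 lower and 340 higher after scaling each library to one common sum. Summed over the members, the level was 1421 RPKM with SR2211 and 2625 RPKM with its vehicle, 2297 FPKM with XY011 and 2766 FPKM with its vehicle, and 1911 FPKM with ENZ and 2358 FPKM with its vehicle. In bulk RNA, fewer cells in mitosis and less of each transcript per cell cannot be told apart.

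**Figure D1:**
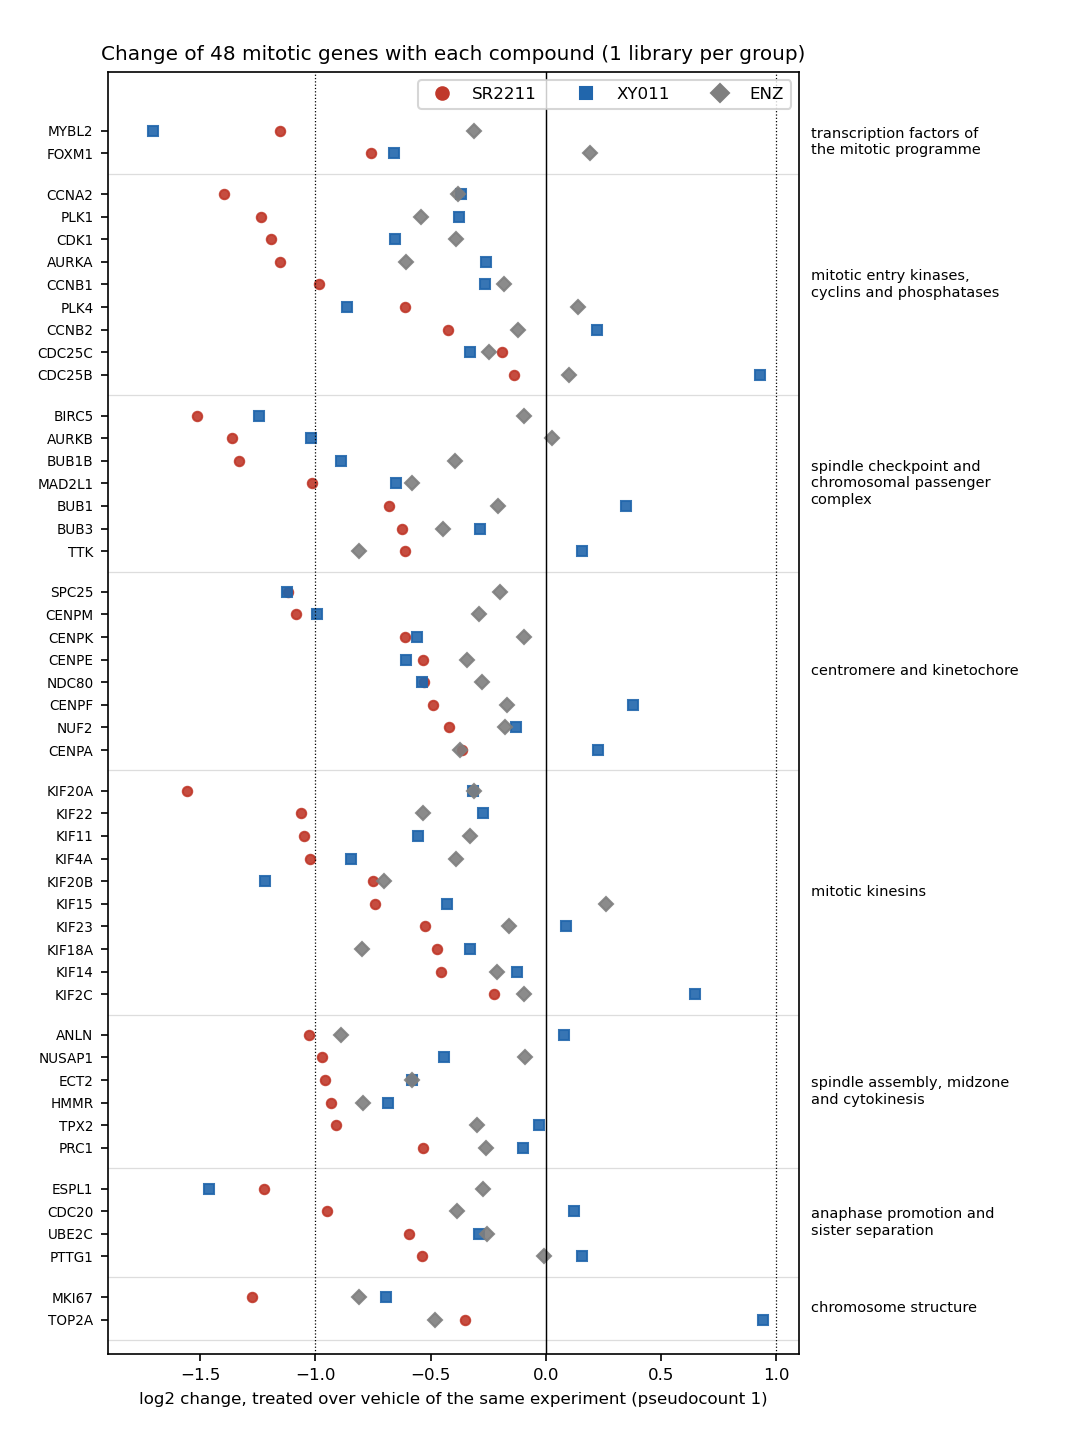
Log2 change of treated over vehicle (x axis, pseudocount 1) for each of the 48 mitotic genes, grouped by role down the page, with SR2211 as circles, XY011 as squares and ENZ as diamonds, 1 library per group. All SR2211 points lie left of 0, XY011 points spread from -1.71 for MYBL2 to 0.94 for TOP2A (12 right of 0, or 16 after centring each experiment on its median gene), and ENZ points lie between -0.89 and 0.26.

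Of the transcription factors of the mitotic programme, MYBL2 was lower with both SR2211 and XY011, and FOXM1 passed the size limit with neither. MYBL2, which encodes B-MYB, the partner of MuvB before FOXM1, had 68.7 RPKM with SR2211 and 154 RPKM with its vehicle, 46.5 FPKM with XY011 and 154 FPKM with its vehicle, and 68.0 FPKM with ENZ and 84.7 FPKM with its vehicle. The treated level was thus under the vehicle in all 3 experiments, with log2 changes of -1.15, -1.71 and -0.31. FOXM1, the forkhead factor that drives G2/M genes, had 59.3 RPKM with SR2211 and 101 RPKM with its vehicle, 79.5 FPKM with XY011 and 126 FPKM with its vehicle, and 52.8 FPKM with ENZ and 46.1 FPKM with its vehicle. Its changes with SR2211 and XY011 were alike in size, at -0.76 and -0.66, while the ENZ library lay above its vehicle at 0.19.

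Among the 9 kinases, cyclins and phosphatases of mitotic entry, 4 were lower with SR2211 (44.4%, beside 5.76% of all genes; median -0.98). With XY011, 0 of 9 were lower, beside 13.2% of all genes (median -0.33). CDK1, the kinase that starts mitosis, had 59.8 RPKM with SR2211 and 138 RPKM with its vehicle, 76.5 FPKM with XY011 and 121 FPKM with its vehicle, and 153 FPKM with ENZ and 201 FPKM with its vehicle. CCNA2, cyclin A2, which serves both S phase and early mitosis, had 19.1 RPKM with SR2211 and 51.9 RPKM with its vehicle, 45.1 FPKM with XY011 and 58.4 FPKM with its vehicle, and 17.4 FPKM with ENZ and 22.9 FPKM with its vehicle. Both lay under their vehicle in each experiment, CCNA2 by -1.40 with SR2211 but only -0.37 with XY011. PLK1, the Polo kinase of centrosome maturation and mitotic exit, had 41.1 RPKM with SR2211 and 98.3 RPKM with its vehicle, 80.3 FPKM with XY011 and 105 FPKM with its vehicle, and 63.0 FPKM with ENZ and 92.1 FPKM with its vehicle. AURKA, the Aurora kinase of the spindle poles, had 20.3 RPKM with SR2211 and 46.4 RPKM with its vehicle, 61.5 FPKM with XY011 and 73.9 FPKM with its vehicle, and 27.1 FPKM with ENZ and 41.8 FPKM with its vehicle. For PLK1 and AURKA the SR2211 change (-1.24 and -1.15) was the largest in size of the 3, and the XY011 change (-0.38 and -0.26) the smallest.

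The B cyclins, the mitotic partners of CDK1, did not reach the size limit. CCNB1 had 65.9 RPKM with SR2211 and 131 RPKM with its vehicle (-0.98), just inside it, and 108 FPKM with XY011 and 130 FPKM with its vehicle (-0.27). CCNB2 had 64.8 RPKM with SR2211 and 87.5 RPKM with its vehicle, and 116 FPKM with XY011 and 99.2 FPKM with its vehicle, so that it lay under the vehicle with SR2211 and over it with XY011. CDC25B, a phosphatase that activates CDK1, had 22.2 RPKM with SR2211 and 24.6 RPKM with its vehicle, 41.3 FPKM with XY011 and 21.2 FPKM with its vehicle, and 23.0 FPKM with ENZ and 21.3 FPKM with its vehicle. The XY011 library alone stood apart for CDC25B, at 0.93 against -0.14 with SR2211 and 0.10 with ENZ. CDC25C, the related phosphatase, differed little, at -0.19 with SR2211, -0.33 with XY011 and -0.24 with ENZ. PLK4, the kinase that starts centriole duplication, had 7.28 RPKM with SR2211 and 11.6 RPKM with its vehicle, and 6.55 FPKM with XY011 and 12.7 FPKM with its vehicle, at -0.61 and -0.86.

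The spindle checkpoint and the chromosomal passenger complex held 4 lower genes of 7 with SR2211 (57.1%, beside 5.76% of all genes; median -1.01). With XY011, 2 of 7 were lower (28.6%, beside 13.2%; median -0.65), the passenger genes BIRC5 and AURKB. The fall with XY011 did not extend to INCENP and CDCA8, from the further list of entry kinases and passenger genes. These were at -0.98 each with SR2211, and at -0.09 and -0.05 with XY011. BIRC5, survivin, which targets the passenger complex to centromeres, had 26.4 RPKM with SR2211 and 77.4 RPKM with its vehicle, 21.8 FPKM with XY011 and 53.2 FPKM with its vehicle, and 53.8 FPKM with ENZ and 57.4 FPKM with its vehicle. AURKB, the kinase of that complex, had 18.7 RPKM with SR2211 and 49.7 RPKM with its vehicle, 25.7 FPKM with XY011 and 53.1 FPKM with its vehicle, and 48.4 FPKM with ENZ and 47.4 FPKM with its vehicle. Both were lower with SR2211 (-1.51 and -1.36) and with XY011 (-1.25 and -1.02), and both stood close to the vehicle with ENZ (-0.09 and 0.03). BUB1B, which encodes the checkpoint inhibitor BUBR1, had 17.3 RPKM with SR2211 and 45.1 RPKM with its vehicle, 21.6 FPKM with XY011 and 40.7 FPKM with its vehicle, and 32.8 FPKM with ENZ and 43.3 FPKM with its vehicle. MAD2L1, which encodes the checkpoint protein MAD2, had 18.1 RPKM with SR2211 and 37.6 RPKM with its vehicle, 16.5 FPKM with XY011 and 26.5 FPKM with its vehicle, and 28.5 FPKM with ENZ and 43.1 FPKM with its vehicle. Both passed the limit with SR2211 (-1.33 and -1.01) and neither did with XY011 (-0.89 and -0.65).

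BUB1, the kinase that recruits checkpoint proteins to kinetochores, had 22.2 RPKM with SR2211 and 36.2 RPKM with its vehicle, 44.2 FPKM with XY011 and 34.4 FPKM with its vehicle, and 15.1 FPKM with ENZ and 17.5 FPKM with its vehicle. It lay under the vehicle with SR2211 (-0.68) and ENZ (-0.21) and over it with XY011 (0.35). TTK, the kinase MPS1 at the head of the checkpoint, showed the same order of signs, at -0.61 with SR2211, 0.16 with XY011 and -0.81 with ENZ. BUB3, the partner of BUB1 and BUBR1, lay under the vehicle in all 3, at -0.62 with SR2211, -0.28 with XY011 and -0.45 with ENZ.

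At the centromere and kinetochore, 2 of 8 genes were lower with SR2211, beside 5.76% of all genes. With XY011, 1 of 8 was lower (12.5%, beside 13.2% of all genes), so this count is no result about kinetochore genes. The medians of the compounds were close, at -0.53 with SR2211 and -0.55 with XY011. SPC25, a subunit of the microtubule-binding NDC80 complex, had 8.64 RPKM with SR2211 and 20.0 RPKM with its vehicle, 22.9 FPKM with XY011 and 51.0 FPKM with its vehicle, and 15.5 FPKM with ENZ and 17.9 FPKM with its vehicle. Its log2 change was -1.12 with SR2211 and -1.12 with XY011, although its vehicle levels, in tables normalised separately, were far apart. CENPM, a subunit of the constitutive centromere network, had 21.5 RPKM with SR2211 and 46.6 RPKM with its vehicle, 13.6 FPKM with XY011 and 28.0 FPKM with its vehicle, and 63.2 FPKM with ENZ and 77.6 FPKM with its vehicle. It was lower with SR2211 (-1.08) and just inside the limit with XY011 (-0.99). NDC80 itself, which grips the microtubule, had 21.7 RPKM with SR2211 and 31.7 RPKM with its vehicle, and 20.9 FPKM with XY011 and 30.7 FPKM with its vehicle, so its change was the same with both to within 0.01.

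CENPA, the histone variant that marks the centromere, had 16.8 RPKM with SR2211 and 21.9 RPKM with its vehicle, 16.3 FPKM with XY011 and 13.8 FPKM with its vehicle, and 14.2 FPKM with ENZ and 18.7 FPKM with its vehicle. CENPF, a large protein of the outer kinetochore, had 24.8 RPKM with SR2211 and 35.3 RPKM with its vehicle, and 32.0 FPKM with XY011 and 24.4 FPKM with its vehicle. These were the kinetochore members that lay under the vehicle with SR2211 and over it with XY011. CENPE, a kinetochore kinesin that brings chromosomes to the spindle equator, CENPK of the constitutive network and NUF2 of the NDC80 complex were under the vehicle in all 3 experiments, between -0.61 and -0.10.

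Among the 10 mitotic kinesins, the motors and microtubule-shaping proteins of the spindle, 4 were lower with SR2211 (40.0%, beside 5.76% of all genes; median -0.74). With XY011, 1 of 10 was lower (10.0%, under the 13.2% of all genes; median -0.32). KIF20A, a kinesin of cytokinesis, had 20.05 RPKM with SR2211 and 60.9 RPKM with its vehicle, 58.0 FPKM with XY011 and 72.5 FPKM with its vehicle, and 35.1 FPKM with ENZ and 43.7 FPKM with its vehicle. Its SR2211 change of -1.56 was the lowest of any member in that experiment, and its changes with XY011 and ENZ were -0.32 and -0.31. KIF11, the motor that pushes the spindle poles apart, had 11.5 RPKM with SR2211 and 24.96 RPKM with its vehicle, 13.1 FPKM with XY011 and 19.8 FPKM with its vehicle, and 6.56 FPKM with ENZ and 8.50 FPKM with its vehicle. KIF22, a chromosome-arm kinesin, had 22.4 RPKM with SR2211 and 47.9 RPKM with its vehicle, 35.6 FPKM with XY011 and 43.2 FPKM with its vehicle, and 54.5 FPKM with ENZ and 79.2 FPKM with its vehicle. Both passed the limit by little with SR2211 (-1.05 and -1.06) and stayed inside it with XY011 (-0.56 and -0.27).

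KIF4A, a midzone kinesin whose reads may be shared with the near-identical copy KIF4B, had 10.7 RPKM with SR2211 and 22.7 RPKM with its vehicle, 12.2 FPKM with XY011 and 22.7 FPKM with its vehicle, and 8.42 FPKM with ENZ and 11.3 FPKM with its vehicle. KIF20B, a kinesin of the final cut between daughter cells, had 7.08 RPKM with SR2211 and 12.6 RPKM with its vehicle, 3.40 FPKM with XY011 and 9.24 FPKM with its vehicle, and 3.85 FPKM with ENZ and 6.90 FPKM with its vehicle. KIF20B was the member lower with XY011 (-1.22) and not with SR2211 (-0.75), the reverse of KIF20A. KIF2C, which takes microtubule ends apart to free wrong attachments, had 28.7 RPKM with SR2211 and 33.6 RPKM with its vehicle, 61.1 FPKM with XY011 and 38.6 FPKM with its vehicle, and 19.5 FPKM with ENZ and 20.9 FPKM with its vehicle. With XY011 it stood over its vehicle at 0.65, the third highest of the members. KIF23, the midzone kinesin of the centralspindlin complex, was also under the vehicle with SR2211 (-0.53) and over it with XY011 (0.09), while KIF14, KIF15 and KIF18A lay between -0.74 and -0.13 with both. With ENZ, KIF18A, which dampens chromosome movement, had 1.93 FPKM against 4.09 FPKM with its vehicle (-0.80), and KIF15, a second pole-separating motor, had 4.04 FPKM against 3.21 FPKM (0.26).

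Of the 6 genes of spindle assembly, the midzone and cytokinesis, 1 was lower with SR2211 (16.7%, beside 5.76% of all genes). With XY011, 0 of 6 were lower, beside 13.2% of all genes. The SR2211 median was -0.95 and the XY011 median -0.27. ANLN, anillin of the contractile ring, had 23.9 RPKM with SR2211 and 49.8 RPKM with its vehicle, 46.2 FPKM with XY011 and 43.7 FPKM with its vehicle, and 30.9 FPKM with ENZ and 58.1 FPKM with its vehicle. It was thus lower with SR2211 (-1.03), near the vehicle with XY011 (0.08), and had the lowest ENZ change of the members (-0.89). TPX2, the spindle assembly factor that activates AURKA, had 46.2 RPKM with SR2211 and 87.7 RPKM with its vehicle, 97.4 FPKM with XY011 and 99.5 FPKM with its vehicle, and 32.4 FPKM with ENZ and 40.1 FPKM with its vehicle. NUSAP1, which bundles spindle microtubules, had 70.0 RPKM with SR2211 and 138 RPKM with its vehicle, and 101 FPKM with XY011 and 138 FPKM with its vehicle. ECT2, which activates RhoA for cytokinesis, had 31.6 RPKM with SR2211 and 62.4 RPKM with its vehicle, and 38.7 FPKM with XY011 and 58.5 FPKM with its vehicle. These 3 sat just inside the limit with SR2211, between -0.97 and -0.91, and between -0.58 and -0.03 with XY011. HMMR, a microtubule-binding protein of the spindle poles, was at -0.93 with SR2211, -0.68 with XY011 and -0.79 with ENZ, and PRC1, the crosslinker of midzone microtubules, at -0.53, -0.10 and -0.26 in the same order.

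Among the 4 genes of anaphase and sister separation, ESPL1 was the 1 lower gene with each of SR2211 and XY011. The shares of all genes lower were 5.76% with SR2211 and 13.2% with XY011, and 1 gene is too few to compare with them. ESPL1, separase, the protease that cuts cohesin, had 4.85 RPKM with SR2211 and 12.7 RPKM with its vehicle, 3.59 FPKM with XY011 and 11.7 FPKM with its vehicle, and 8.73 FPKM with ENZ and 10.8 FPKM with its vehicle. Its changes were -1.22 with SR2211, -1.46 with XY011 and -0.27 with ENZ. CDC20, the activator of the anaphase-promoting complex, had 64.2 RPKM with SR2211 and 125 RPKM with its vehicle, 128 FPKM with XY011 and 118 FPKM with its vehicle, and 64.4 FPKM with ENZ and 84.5 FPKM with its vehicle. PTTG1, securin, the inhibitor of separase, whose reads may be shared with the copy PTTG2, had 134 RPKM with SR2211 and 195 RPKM with its vehicle, 279 FPKM with XY011 and 251 FPKM with its vehicle, and 136 FPKM with ENZ and 137 FPKM with its vehicle. CDC20 and PTTG1 lay under the vehicle with SR2211 (-0.95 and -0.54) and over it with XY011 (0.12 and 0.16), where separase was lower. UBE2C, the ubiquitin-conjugating enzyme of that complex, was at -0.59 with SR2211, -0.29 with XY011 and -0.26 with ENZ.

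Chromosome structure was represented by MKI67 and TOP2A, which parted ways with XY011. MKI67, the Ki-67 protein that coats mitotic chromosomes and serves as a proliferation marker, had 22.5 RPKM with SR2211 and 55.9 RPKM with its vehicle, 36.6 FPKM with XY011 and 59.8 FPKM with its vehicle, and 15.2 FPKM with ENZ and 27.5 FPKM with its vehicle. TOP2A, the topoisomerase that untangles sister chromosomes, had 56.4 RPKM with SR2211 and 72.2 RPKM with its vehicle, 90.8 FPKM with XY011 and 46.7 FPKM with its vehicle, and 33.8 FPKM with ENZ and 47.6 FPKM with its vehicle. MKI67 was under the vehicle in all 3 experiments (-1.28, -0.69 and -0.81), and TOP2A was under it with SR2211 (-0.35) and ENZ (-0.48) and over it with XY011 (0.94), the highest XY011 change of any member.

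**Figure D2:**
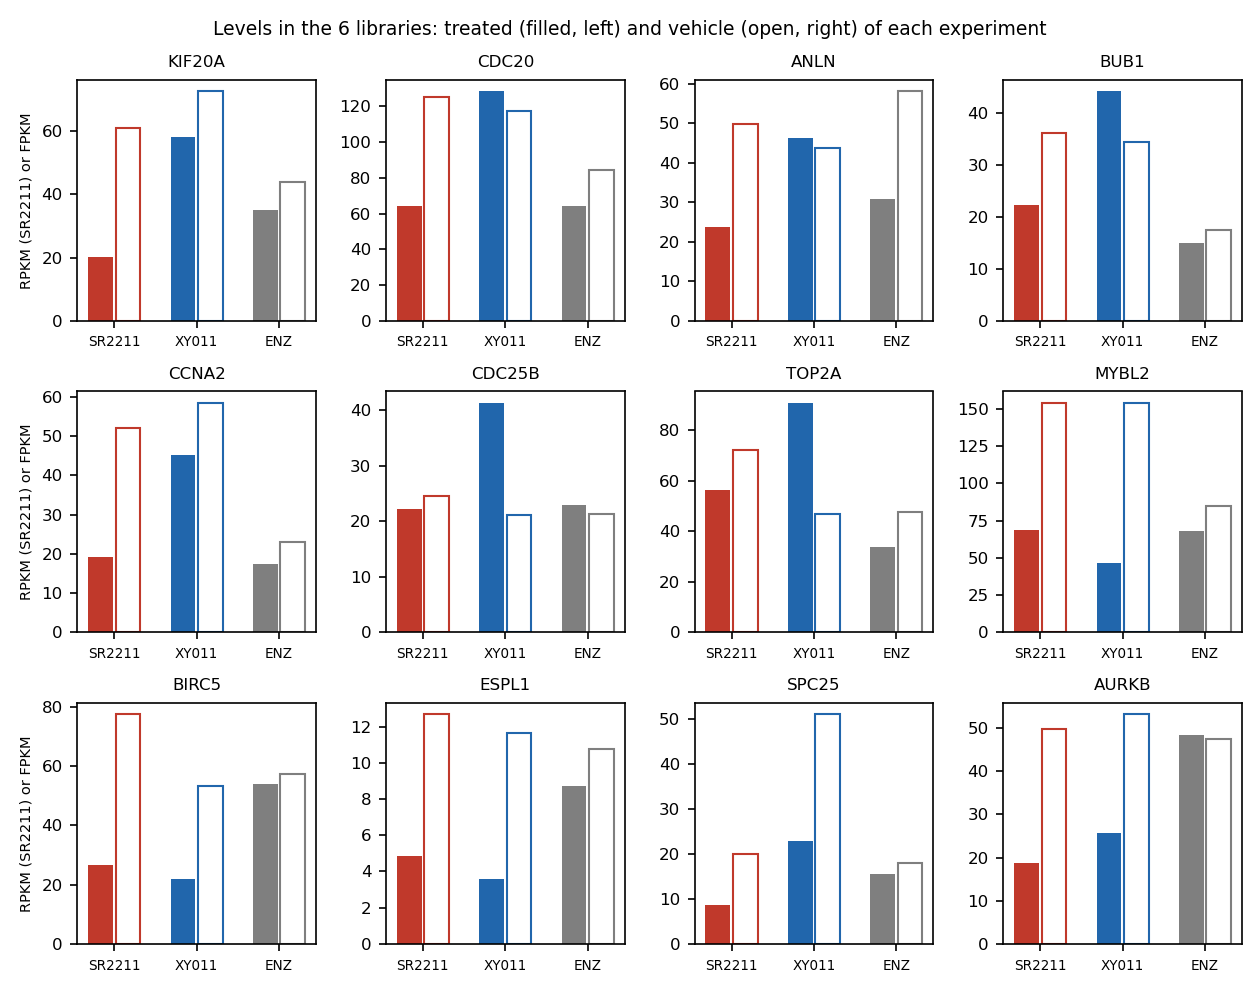
Levels of 12 mitotic genes in the 6 libraries (y axis, RPKM for the SR2211 experiment and FPKM for the others, from 0), with the treated library as a filled bar left of the open bar of its vehicle, 1 library per bar. The first 7 panels (KIF20A to TOP2A) are the genes whose SR2211 and XY011 changes differed by 1 or more, and the last 5 (MYBL2 to AURKB) are those lower with both.

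How far counting error alone reaches could be asked for the SR2211 experiment, where read numbers were recovered from the RPKM steps for 48 of 48 members. The smallest read numbers that give the deposited values ran from 49 to 2650 with SR2211 and from 135 to 5729 with its vehicle. The exact 95% interval of the ratio, which covers counting error only and is too wide where the true numbers are multiples of the smallest, lay under 1 for 46 members and under 0.5 for 11. KIF20A had 568 reads with SR2211 and 1734 with its vehicle, a ratio of 0.329 (0.299 to 0.362), and MKI67 had 2294 with SR2211 and 5729 with its vehicle, a ratio of 0.402 (0.383 to 0.422). CDC25B at 0.905 (0.814 to 1.01) and CDC25C at 0.866 (0.701 to 1.07) were the members whose interval held 1. For these phosphatases no difference was detectable with the smallest read numbers, and multiples of them would give narrower intervals. For TOP2A the ratio was 0.781 (0.742 to 0.822), under 1 by more than counting error in this pair of libraries.

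**Figure D3:**
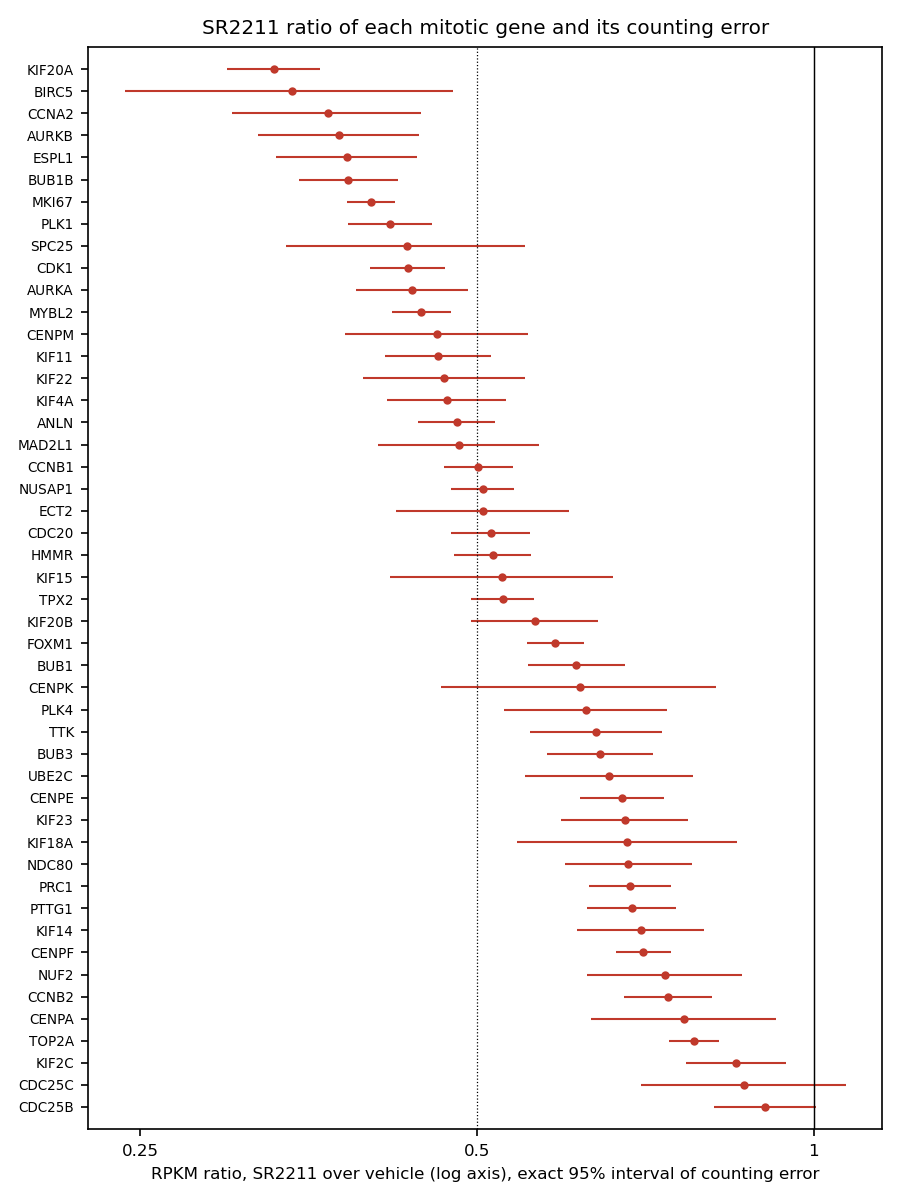
RPKM ratio of SR2211 over its vehicle for the 48 mitotic genes (x axis, log scale), as points with the exact 95% interval of counting error as lines, sorted from the lowest ratio at the top. KIF20A at 0.329 stands lowest, and the intervals of CDC25C and CDC25B at the bottom reach past 1; the lines hold no error between cultures.

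SR2211 and XY011 were given at the same dose and time but in separate experiments, so a difference between compounds and one between experiments cannot be told apart, and no test of the difference is possible with 1 library per group. Over the 48 genes the SR2211 change lay below the XY011 change in 40 (83.3%), beside 44.4% of the 11628 genes tested in both, and the median difference of SR2211 minus XY011 was -0.44 for the members and 0.06 for all genes. A difference of 1 or more was found for 7 members (14.6%), all with SR2211 the lower, beside 1.77% of all genes in that direction, 4.26% in the other and 6.03% in either. In order of size these were TOP2A at -1.29, KIF20A at -1.24, ANLN at -1.11, CDC20 and CDC25B at -1.07 each, and CCNA2 and BUB1 at -1.03 each. The gene names take in a topoisomerase, a kinesin, the contractile ring, the anaphase activator, a phosphatase, a cyclin and a checkpoint kinase, so no single role held them.

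The genes lower with both compounds were 5 of 48 (10.4%, beside 4.58% of the genes tested in both): MYBL2, AURKB, BIRC5, SPC25 and ESPL1. After centring or quantile scaling, AURKB and SPC25 came short of the limit with XY011. SR2211 alone had 13 lower members, beside 1.21% of the genes tested in both, and XY011 alone had 1, KIF20B, beside 8.42%. In 12 members the change was below 0 with SR2211 and above 0 with XY011, namely CCNB2, CDC25B, BUB1, TTK, CENPA, CENPF, KIF2C, KIF23, ANLN, CDC20, PTTG1 and TOP2A. No share over all genes was counted for this split of signs. These 12 stayed above 0 with XY011 under each scaling tried, and centring each experiment on its median gene added NUF2, KIF14, TPX2 and PRC1 to them. In the other direction, the XY011 change was below the SR2211 change in 8 members, by most for MYBL2 (0.55 as SR2211 minus XY011) and KIF20B (0.47). Across the 48 genes, which are not independent replicates, the changes with SR2211 and XY011 had a Pearson r of 0.623 and a Spearman rho of 0.626.

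**Figure D4:**
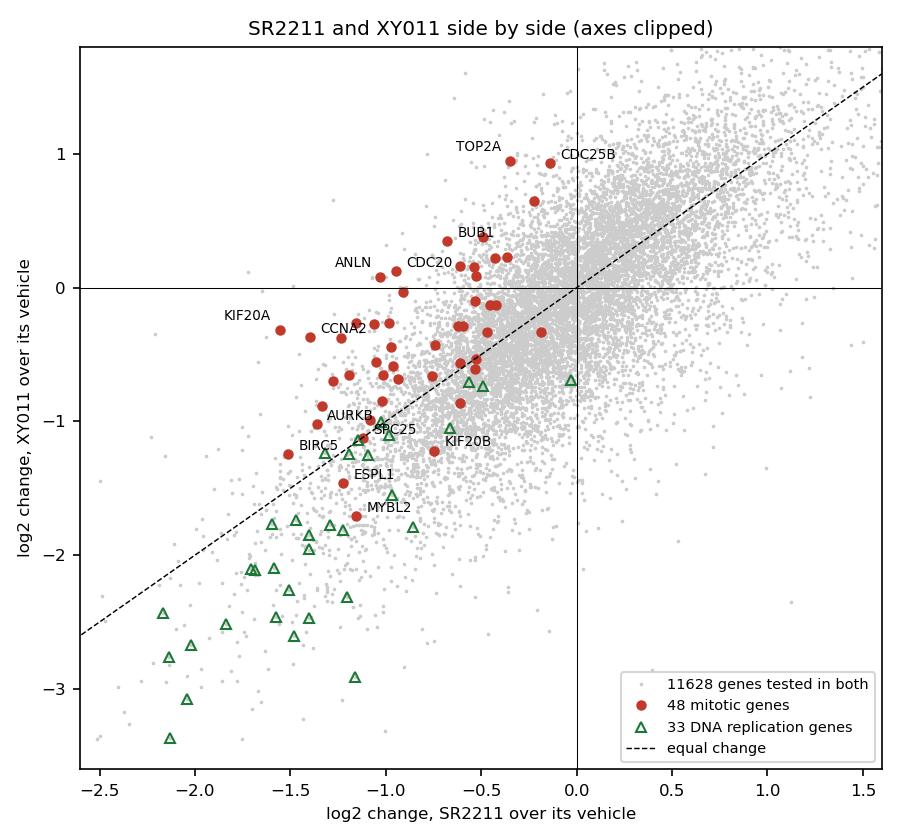
Log2 change with XY011 (y axis) against log2 change with SR2211 (x axis), each over its own vehicle, for 11628 genes (grey), the 48 mitotic genes (filled circles) and 33 DNA replication genes (open triangles), with the line of equal change dashed and axes clipped. Of the mitotic genes 40 lie above the dashed line, 12 of them above 0 on the y axis (16 after centring on the median gene), while the replication genes have medians of -1.40 with SR2211 and -1.85 with XY011.

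The vehicles of the SR2211 and XY011 experiments also differed from each other, in tables that were normalised separately. The SR2211-experiment vehicle over the XY011-experiment vehicle ran from -1.33 (UBE2C) to 0.72 (CENPM) in log2, with a median size of 0.19 over the members and 0.28 over all genes. A gap of 1 or more was found for 2 members, UBE2C and SPC25 (-1.31), and for 7.71% of all genes. The SR2211 change was larger in size than this gap for 40 of 48 members, the XY011 change for 35, and the difference between the compounds for 34. A gap shared by both libraries of an experiment drops out of the change within it, so these counts do not measure noise. No share over all genes was set beside them.

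A fit of the SR2211 and XY011 experiments together asked which genes moved the same way with both. It used limma on the 4 libraries with the experiment as a term, which leaves 1 residual degree of freedom, the disagreement between the compounds. Limma draws this toward a spread shared by all genes (prior SD 0.2112, 5.215 prior degrees of freedom). The SEs and p-values thus rest mostly on that shared spread, and less on each gene's own agreement between the compounds. At an adjusted p under 0.05 (limma, Benjamini-Hochberg over 12058 genes), 17 of 48 members fell and 0 rose, beside 13.2% of all genes that fell and 8.87% that rose. Over all genes limma called 1595 lower and 1070 higher, and 1776 lower and 1805 higher after centring. At an unadjusted p under 0.05, 28 members were lower and 0 higher. No share of all genes was counted at this unadjusted threshold, here or for the other pseudocount below. These unadjusted counts are therefore no result about the members. The fitted log2 change was -1.43 for MYBL2 (SE 0.22, limma adjusted p = 0.0129), -1.38 for BIRC5 (SE 0.20, adjusted p = 0.0111) and -1.34 for ESPL1 (SE 0.20, adjusted p = 0.0116), each lower in both experiments. MKI67 fell by 0.99 (SE 0.23, limma adjusted p = 0.031) and FOXM1 by 0.71 (SE 0.19, limma adjusted p = 0.0474). KIF20A, lowest with SR2211, did not pass at -0.94 (SE 0.32, limma adjusted p = 0.0797), nor did TOP2A at 0.30 (SE 0.32, limma adjusted p = 0.524). The count depended on the pseudocount: with 0.1 in place of 1, limma called 0 of 48, and 0 of all genes, with 22 members lower at an unadjusted p under 0.05 and adjusted p-values from 0.0612 upward.

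With ENZ, 43 of the 48 genes had a change below 0 (89.6%, beside 52.3% of all genes). The 5 above it were FOXM1, CDC25B, PLK4, AURKB and KIF15. Scaling each library to one common sum put CDC25B and AURKB below 0 and the median of all genes at -0.12, and centring put PTTG1 above 0. The lowest changes were those of ANLN (-0.89), TTK and MKI67 (-0.81 each) and KIF18A (-0.80). TTK had 7.23 FPKM with ENZ and 13.4 FPKM with its vehicle. In all 3 experiments, 32 members had a change below 0, and no share over all genes was counted beside this.

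Genes of the same processes and their regulators outside the 48 were counted from 7 further lists of 129 genes. Among the lists were brakes on mitotic entry and MuvB and DREAM subunits, which held every gene higher with SR2211 or XY011. Together the lists had 29 lower and 2 higher of 127 tested with SR2211 (median -0.66). With XY011, 27 were lower and 4 higher of 127 (median -0.44), and with ENZ 2 were lower and 0 higher of 129 (median -0.25). The shares lower were 22.8% with SR2211, 21.3% with XY011 and 1.55% with ENZ, beside 5.76%, 13.2% and 4.65% of all genes in the same order, so the ENZ share was under that of all genes. Other centromere and kinetochore genes had 10 lower of 32 with SR2211 (31.2%, median -0.76) and 13 of 32 with XY011 (40.6%, median -0.73). ZWINT, which links the outer kinetochore to the checkpoint, had 22.7 RPKM with SR2211 and 80.4 RPKM with its vehicle, and 14.02 FPKM with XY011 and 93.3 FPKM with its vehicle. SKA3, of the SKA complex that holds microtubule ends, had 18.9 RPKM with SR2211 and 52.7 RPKM with its vehicle, and 8.37 FPKM with XY011 and 58.7 FPKM with its vehicle. CENPN, which reads CENPA chromatin, had 16.3 RPKM with SR2211 and 67.7 RPKM with its vehicle, the lowest SR2211 change of that list at -1.99. With ENZ the 1 lower gene was KNL1, the scaffold that binds BUB1, with 5.44 FPKM against 26.7 FPKM with its vehicle (-2.10).

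Of the other spindle, midzone and centriole genes, 6 of 24 were lower with SR2211 (beside 5.76% of all genes; median -0.78). With XY011, 2 of 24 were lower (8.33%, under the 13.2% of all genes) and the median was -0.18. Of these 24, 9 lay above 0 and 62.5% below it, near the 57.7% of all genes below 0. FAM83D, which recruits a kinase to the spindle, had 23.2 RPKM with SR2211 and 73.8 RPKM with its vehicle (-1.63), and 50.9 FPKM with XY011 and 66.1 FPKM with its vehicle (-0.37). TUBG1, the γ-tubulin that nucleates microtubules, was lower with both, at -1.59 with SR2211 and -1.62 with XY011. NEK2, a centrosome kinase, stood at 49.0 FPKM with XY011 and 24.1 FPKM with its vehicle, which came just short of the size limit.

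Condensin and cohesin genes had 4 lower of 17 with SR2211 (23.5%, beside 5.76% of all genes, with a median of -0.64). With XY011, 4 of 17 were lower (23.5%, beside 13.2%, with a median of -0.55). With ENZ, 0 of 17 were lower and all 17 changes were below 0 (median -0.46), beside 52.3% of all genes below 0. STAG1, a cohesin subunit, had 8.70 RPKM with SR2211 and 23.2 RPKM with its vehicle, and 3.11 FPKM with XY011 and 18.1 FPKM with its vehicle. Its paralogue STAG2 stood over the vehicle with both, at 0.61 with SR2211 and 0.91 with XY011. Subunits and regulators of the anaphase-promoting complex had 1 lower of 15 with SR2211, FBXO5 (-1.20), an inhibitor of the complex, 2 of 15 with XY011, ANAPC1 (-1.06) and ANAPC2 (-1.03), and 1 of 15 with ENZ, CDC27 (-1.12). These shares of 6.67%, 13.3% and 6.67% were near the 5.76%, 13.2% and 4.65% of all genes, and so are no result about the complex. Other entry kinases and passenger genes had 6 lower of 19 with SR2211 (31.6%, beside 5.76% of all genes) and 2 of 19 with XY011 (10.5%, beside 13.2%). The lowest change in both was that of CDC25A, a phosphatase that also acts at the start of S phase, which had 3.10 RPKM with SR2211 and 12.8 RPKM with its vehicle, and 1.40 FPKM with XY011 and 11.9 FPKM with its vehicle.

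Of 9 brakes on mitotic entry tested, 2 were higher and 1 lower with SR2211, and 3 were higher and 1 lower with XY011. The shares higher were 22.2% with SR2211 and 33.3% with XY011, beside 5.1% and 7.59% of all genes, and the share lower was 11.1% with each, beside 5.76% with SR2211 and 13.2% with XY011. CDKN1A, the CDK inhibitor p21, had 214 RPKM with SR2211 and 26.2 RPKM with its vehicle, 146 FPKM with XY011 and 29.9 FPKM with its vehicle, and 54.6 FPKM with ENZ and 54.1 FPKM with its vehicle. GADD45A, a stress protein that restrains CDK1, had 33.7 RPKM with SR2211 and 3.40 RPKM with its vehicle, and 44.2 FPKM with XY011 and 3.96 FPKM with its vehicle. Both were thus higher with SR2211 (2.98 each) and with XY011 (2.25 and 3.19), and CDKN1A was level with ENZ. CDKN1B, the inhibitor p27, passed the limit with XY011 (102 FPKM against 25.7 FPKM with its vehicle). PKMYT1, a kinase that holds CDK1 inactive, was lower with SR2211 (-1.33), and CHEK1, a checkpoint kinase, with XY011 (-1.39). Of the 11 MuvB and DREAM subunits, RBL1 was lower with SR2211 (-1.21), and RBL1 (-1.60), TFDP1 (-1.43) and RBBP4 (-1.06) were lower with XY011, where E2F5 was higher (1.11). The shares lower were 9.09% with SR2211 and 27.3% with XY011, and the share higher with XY011 was 9.09%, near the 7.59% of all genes.

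DNA replication genes were set beside the mitotic genes as the earlier wave of the cell cycle. Of 33, 26 were lower with SR2211 (median -1.40), 30 with XY011 (median -1.85) and 2 with ENZ (median -0.54). The shares were 78.8% with SR2211 and 90.9% with XY011, beside 5.76% and 13.2% of all genes, and 6.06% with ENZ, near the 4.65% of all genes. The order of the compounds in medians was thus SR2211 below XY011 for the mitotic genes and XY011 below SR2211 for the replication genes. FEN1, the flap endonuclease, had 14.3 RPKM with SR2211 and 66.0 RPKM with its vehicle, and 4.65 FPKM with XY011 and 57.2 FPKM with its vehicle. Within the mitotic genes, the 29 with a CHR in the window had medians of -0.93 with SR2211, -0.43 with XY011 and -0.37 with ENZ, and the 11 without had -0.61, -0.33 and -0.18 in the same order. The calls did not follow these medians: 11 of 29 with a CHR and 4 of 11 without were lower with SR2211, and 3 of 29 with a CHR and 2 of 11 without were lower with XY011. For CCAAT the medians were -0.96 with the box and -0.53 without it for SR2211, and -0.37 with the box and -0.43 without it for XY011. Lower with SR2211 were 12 of 29 with the box and 3 of 11 without it. Lower with XY011 were 4 of 29 with the box and 1 of 11 without it. Sites with other letters or outside the window were not searched, so the 11 genes without a CHR here may have one elsewhere.

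**Figure D5:**
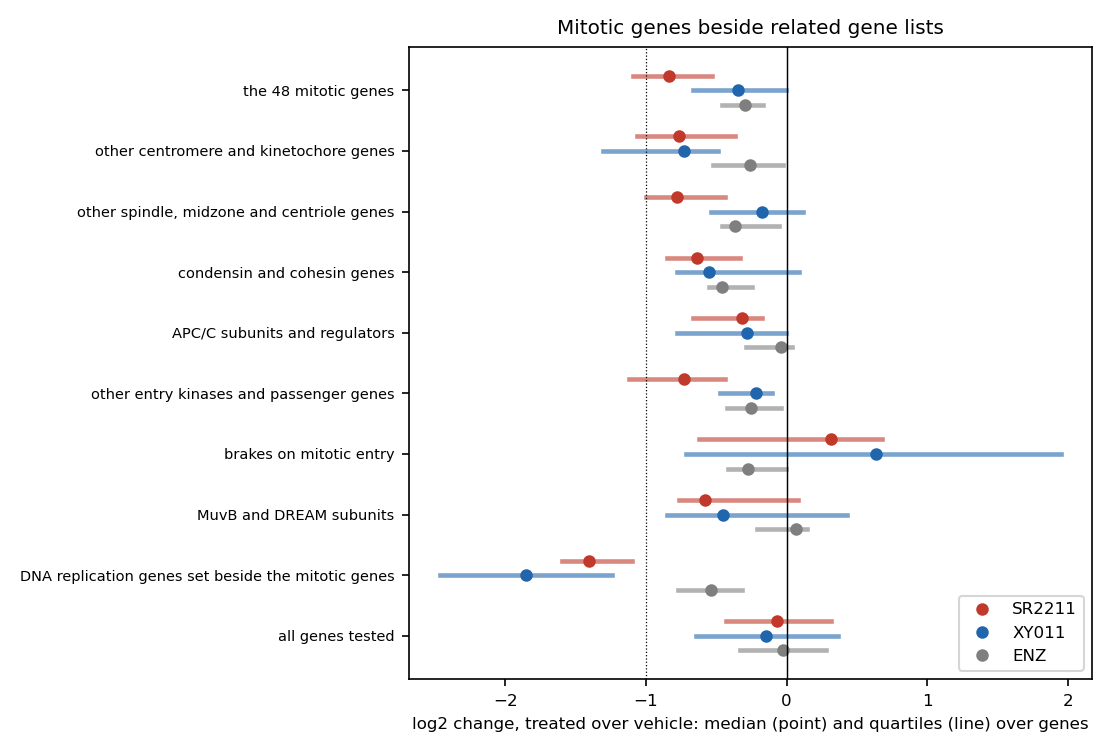
Median (point) and quartiles (line) over genes of the log2 change of treated over vehicle (x axis), for the 48 mitotic genes, related gene lists and all genes tested, with SR2211, XY011 and ENZ as separate rows in each list. The mitotic genes have medians of -0.83 with SR2211, -0.35 with XY011 (-0.20 against the median gene) and -0.30 with ENZ, and the replication genes -1.40, -1.85 and -0.54.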

How the data were processed

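RNA was poly-A selected and made into TruSeq libraries, per the labels' protocols. The authors deposited RPKM values per gene for the SR2211 experiment and FPKM values per gene for the XY011 and ENZ experiments, per the file headers. BWA, Bowtie, Cufflinks, Cuffdiff and the builds GRCh37 and hg19 are named in the submitters' processing notes. Neither versions and roles nor annotation and strand handling were given in the sources used here, and reads of overlapping antisense genes cannot be separated. A stand-in value recurs in the tables. At 0.01 are listed 1035 genes with SR2211 and 903 in its vehicle. This is not a floor, since the lowest values there were 0.00582 with SR2211 and 0.00579 in its vehicle. At 0.001 are listed 1301 genes with XY011 and 680 in its vehicle, and at 0 are 730 with ENZ and 0 in its vehicle.

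Each treated library was set against the vehicle of its own experiment as log2((treated + 1)/(vehicle + 1)) over genes at 1 or more in either library. Small RNA genes were left out. Genes were matched by Entrez gene ID in the SR2211 and XY011 experiments. In the ENZ experiment they were matched by RefSeq gene name, and repeated symbols were summed. With 1 library per group, no p-value was computed within an experiment. The limma fit of SR2211 and XY011 (limma 3.58.1, R 4.3.3) kept genes whose mean over the 4 libraries was at least 1. It was also run on simulated data in which both compounds had the same effect. That run does not cover genes where the compounds differ. P-values measure only the spread between these libraries, mostly as shared by all genes. The read numbers of the SR2211 experiment came from the steps of the RPKM values of microRNA genes, of which 33 of 34 with SR2211 and 25 of 25 in its vehicle were whole within a tolerance of 2e-05 reads, and from the smallest gene length that gives whole reads in both libraries. That length lay within 10% of an annotated GENCODE 29 transcript for 43 of 48 members. Promoters came from RefSeq on GRCh38.p14, a later build than that of the files. Values in every library were given for members past a log2 change of 1 in any experiment, members whose SR2211 and XY011 changes differ by 1 or more and the first members of each role. Of the other lists, up to 3 genes with the largest change in each direction were eligible to be named per comparison. Other members were given by their changes or ranges. The members and all lists were chosen with earlier results of these data known. Alternatives were another pseudocount, other minimum values, centring, quantile scaling, scaling to a common sum and a trended prior. Python 3.11.15 with pandas 2.3.3 and scipy 1.17.1 was used elsewhere.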

Additional observations from a re-analysis of the deposited data

How the results depend on the processing

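No paired analysis was possible because each group had 1 library, whose replicate number is only a name, beyond the limma fit of SR2211 and XY011, which holds each treated library and its vehicle together by a term for the experiment. A library could not be left out for the same reason. The count of members that fell in the limma fit of SR2211 and XY011 was 17 as reported and 0 with a pseudocount of 0.1. It was 9 with quantile scaling, 6 with each library scaled to a common sum, 13 with no minimum value, 19 after centring and 25 with a trended prior. The count over all genes moved too, from 1595 of 12058 as reported to 0 of 12058 with a pseudocount of 0.1. It was 973 of 12056 with quantile scaling and 669 of 13318 with a common sum. With no minimum value it was 1410 of 15593, after centring 1776 of 12058 and with a trended prior 2142 of 12058. The cause of these shifts was not tested. Members higher with XY011 numbered 2 in place of 0 after centring (TOP2A at 1.09 and CDC25B at 1.08) and 2 with quantile scaling (1.09 and 1.06). Over all genes, 1271 were higher after centring and 1233 with quantile scaling, in place of 957. Members lower with ENZ numbered 1 in place of 0 with a pseudocount of 0.1, KIF18A at -1.05, beside 1451 of all genes in place of 896. The count of members lower with SR2211 lay between 12 (quantile scaling) and 18. MAD2L1, KIF4A, KIF11, KIF22 and ANLN came short of the limit after centring and after quantile scaling. The count of members lower with XY011 lay between 4 and 7. Over all genes, the count lower with SR2211 lay between 568 (centring) and 1052 (pseudocount of 0.1). With XY011 it lay between 1214 (centring) and 2301 (common sum). The members that differed between the compounds numbered 7 under each alternative, and no called change reversed its sign. Size limits on 1 library per group rest on no spread, and the depth of the FPKM libraries is unknown.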
